A study of Mus musculus with 20 samples.

Results

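The cells described here were 830 of 16573 mouse embryonic stem (ES) cells profiled by single-cell RNA-seq before any induction. They were the top of each library by expression of keratin, actin, primed epiblast and primitive streak genes. They were chosen by a rule on their own counts. In each of the 2 ES libraries, cells with at least 500 genes and 2000 UMIs (unique molecular identifiers, 1 per counted RNA molecule) were ranked by the share of their UMIs in 8 genes, Krt8, Krt18, Acta2, Tagln, Fgf5, T, Mixl1 and Eomes, and the highest 5% were taken. This gave 375 of 7486 cells in ES replicate 1 and 455 of 9087 in ES replicate 2, out of 134279 cells in the series, and these are called high-share cells below. They were compared with the lower part of the same ranking. Since 69.0% and 72.5% of cells held no UMI of the 8 genes, that part was every such cell, 5167 in replicate 1 and 6586 in replicate 2, called zero-share cells.

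The study followed XEN cells, a line of extraembryonic endoderm, toward iPS cells, and ES cells toward XEN-like cells (iXEN), in 20 libraries. Both ES libraries held the line iGata4-Gata6-Venus ES at 0 h, before doxycycline. Its genotype was Col1A1TetO-Gata4/+; R26M2rtTA/+; Gata6H2B-Venus/+, that is, a Gata4 transgene, made as a fusion to mCherry, under a doxycycline-responsive promoter, the transactivator that drives it, and a nuclear Venus reporter at Gata6, and both the high-share and the zero-share cells carried it. The cells grew on gelatin in serum with leukemia inhibitory factor (LIF) and were loaded unsorted. The 2 libraries were technical duplicates of 1 line, so the spread between them, and any p-value built on it, does not cover the variation between cultures or lines.

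ES cells in serum and LIF are a mixed population, in which most cells hold the network of Pou5f1, Sox2 and Nanog and some leave it spontaneously. Krt8 and Krt18 pair into the first keratin filaments of embryonic epithelia. Acta2 and Tagln belong to the contractile actin apparatus of smooth muscle and myofibroblasts, and are also switched on as cells spread. Fgf5 marks primed epiblast, and T, Mixl1 and Eomes are transcription factors of the primitive streak, where mesoderm and endoderm arise.

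The same 5% reached to different depths in the 2 libraries, and levels below are therefore given for each. Shares and levels are given as CPM, UMIs in 1000000 UMIs of a cell or, for levels, of all cells of a class summed. In replicate 1 the share among high-share cells ran from 324 to 28195 CPM, with a median of 2995. In replicate 2 it ran from 148.1 to 16462 CPM, with a median of 271. The last cell inside held 4 of 12330 UMIs in the 8 genes in replicate 1 and 3 of 20252 in replicate 2, while the first outside held 6 of 18671 and 2 of 13506. Of the high-share cells, 23 (6.13%) in replicate 1 and 275 (60.4%) in replicate 2 had 5 or fewer such UMIs. Cells over 2000 CPM, a limit set after these values were seen, made up 3.27% of replicate 1 (245 cells, 95% exact Clopper-Pearson interval 2.88 to 3.70) and 0.407% of replicate 2 (37 cells, 0.287 to 0.561). These intervals cover counting error only. The libraries thus differed in how many cells expressed the 8 genes strongly, and most of the chosen cells of replicate 2 were chosen on 5 or fewer UMIs. Over all high-share cells, 189 of replicate 2 and 23 of replicate 1 had a share within 1.5 times the limit.

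**Figure D1:**
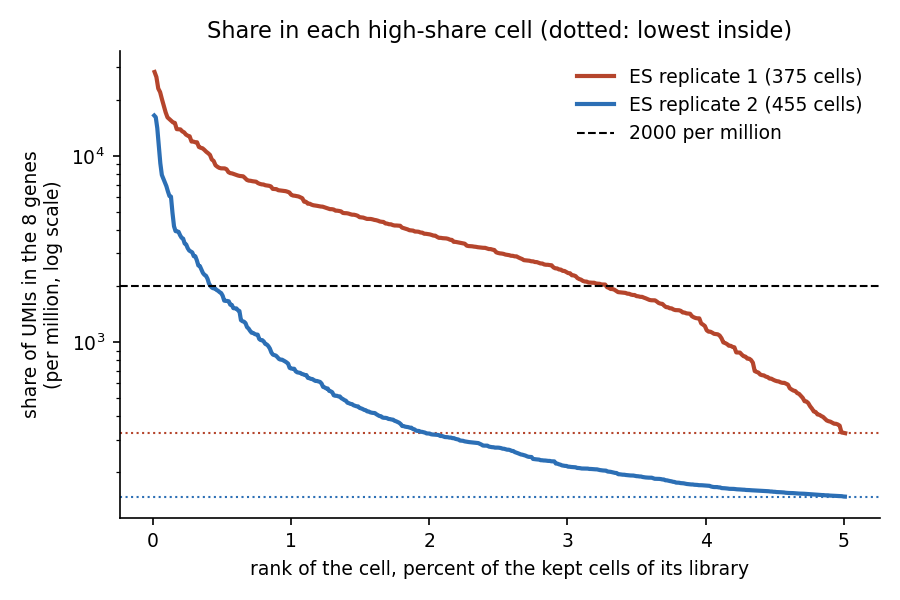
Share of a cell's UMIs in the 8 genes (CPM, log scale) for each high-share cell, against its rank as a percent of the kept cells of its library. Solid lines are the 2 ES libraries, the dashed line marks 2000 CPM and dotted lines the lowest share inside. The replicate 1 curve crosses 2000 CPM at 3.27% of cells and the replicate 2 curve at 0.407%.

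The ES tables held 110859909 and 138376109 UMIs. High-share cells were deeper than zero-share cells, with a median of 17103 against 12695 UMIs in replicate 1 and 15675 against 12452 in replicate 2. Ribosomal protein genes took 27.1% against 33.4% of UMIs in replicate 1 and 32.0% against 35.0% in replicate 2, and mitochondrial genes 1.99% against 2.22% and 1.60% against 2.06%. The files shared 100 cell barcodes, and the kept cells 81. Of these 81, 7 belonged to high-share cells of replicate 1 and 3 to those of replicate 2. Cells among the 5% with the highest doublet scores made up 5.87% and 2.64% of high-share cells, and 4.90% and 5.04% of zero-share cells.

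The 4 keratin and actin genes carried most of the share. Krt18 (chr15:102028180-102032027, plus strand, GRCm38) was at 1132 CPM in the high-share cells of replicate 1 and 249 in those of replicate 2, and Krt8 (chr15:101996698-102004482, minus strand) at 865 and 249. Tagln (chr9:45929619-45936058, minus strand), an actin-binding protein, reached 1306.6 and 293 CPM. Acta2 (chr19:34241090-34255590, minus strand), smooth muscle actin, was at 568 and 47.9 CPM, and differed most of the 4 between the libraries. It was found in 43.2% of high-share cells of replicate 1 and 2.64% of those of replicate 2. Among cells over 2000 CPM the libraries were closer, with Krt18 at 1503 and 1814 CPM, Tagln at 1796 and 1733, and Acta2 at 807 and 497. All 8 genes are at 0 in the zero-share cells by construction, and no test was made on them.

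Fgf5, T, Mixl1 and Eomes are called streak genes here, although Fgf5 marks primed epiblast. In high-share cells T and Fgf5 followed the opposite order between libraries, and Eomes and Mixl1 less so. T was at 12.6 CPM in replicate 1 and 49.0 in replicate 2, Fgf5 at 3.62 and 29.6, Eomes at 6.37 and 11.2, and Mixl1 at 4.34 and 4.72. Over all kept cells, T was at 1.15 and 3.04 CPM and Fgf5 at 0.417 and 2.29. Eomes (2.40 and 1.88 CPM) and Mixl1 (0.770 and 0.609) were higher there in replicate 1. At least 1 of these 4 genes was counted in 53 high-share cells (14.1%, 10.8 to 18.1) of replicate 1 and 187 (41.1%, 36.5 to 45.8) of replicate 2. A keratin and an actin gene were counted in the same cell in 314 of 375 cells (83.7%) of replicate 1 and 161 of 455 (35.4%) of replicate 2. Over 2000 CPM this held for 226 of 245 and 36 of 37 cells. These counts describe the genes of the rule in cells chosen by it, and a single UMI of each kind was enough.

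Because a cell ranked on few UMIs can owe its place to counting noise, cells were also chosen on a random part of their UMIs, each UMI kept with equal odds, and read on the rest. In the unused UMIs of replicate 2, Krt8 was at 243 CPM, Krt18 at 257, Tagln at 307 and T at 47.2, while Fgf5 was at 22.8, Eomes at 8.89 and Mixl1 at 3.61. The comparison cells, with none of the 8 genes in the part used to choose, had 10.3, 5.85, 2.13, 0.259, 0.721, 1.37 and 0.407 CPM of these genes. In replicate 1 Krt8 was at 871 against 6.49 CPM and Eomes at 3.52 against 2.01. The share of cells with a UMI was lower there in replicate 2, 29.2% for Krt8 against 62.9% in all UMIs, at a smaller depth. At the same cut in depth it fell less in replicate 1, to 74.4% from 84.0%. Of the comparison cells of replicate 2, 6.59% had a Krt8 UMI in the unused part. The sums of the keratin and actin genes rest largely on the few strong cells, so they say little of the cells near the limit.

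**Figure D2:**
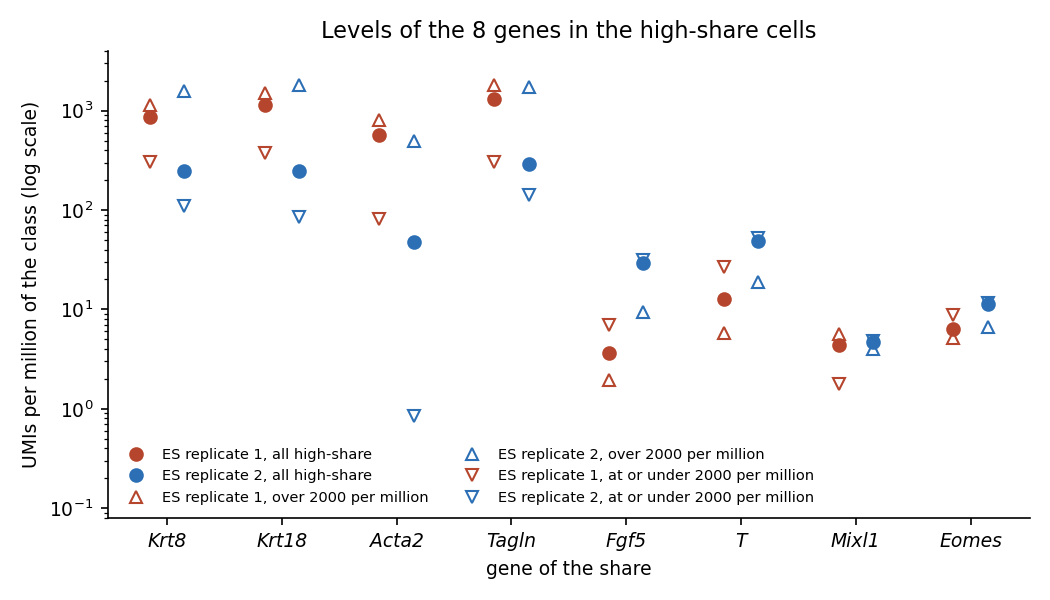
Levels of the 8 genes (CPM of the class, log scale) in all high-share cells (circles), those over 2000 CPM (upward triangles) and those at or under it (downward triangles), in ES replicates 1 and 2. Among cells over 2000 CPM Tagln is at 1796 and 1733 CPM in the 2 libraries, while at or under that limit Acta2 falls to 81.9 and 0.845 CPM.

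The Acta2 promoter is shown because serum response factor reads smooth muscle genes through the CArG box, 2 C, 6 A or T and 2 G. RefSeq's 300 bases around the start of Acta2 (chr19:34255324-34255623, minus strand, GRCm38.p6, 250 before the start and 50 after) held no full match on either strand. It held 2 matches with 1 C or G among the middle 6 bases, shown in capitals, and 9.69% of all genes with a promoter of this length had 1 or more such matches.
Acta2: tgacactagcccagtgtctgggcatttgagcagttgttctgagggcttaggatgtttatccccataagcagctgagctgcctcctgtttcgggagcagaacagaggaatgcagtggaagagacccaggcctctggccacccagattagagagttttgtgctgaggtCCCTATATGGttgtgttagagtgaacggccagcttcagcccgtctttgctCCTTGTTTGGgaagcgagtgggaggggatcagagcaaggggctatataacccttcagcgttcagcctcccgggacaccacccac

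To ask which other genes distinguished the high-share cells, UMIs were summed per class and library and compared with edgeR's quasi-likelihood test, with the library as a block and the 8 genes left out. Called genes had a Benjamini-Hochberg adjusted p below 0.05 together with a change of 1 or more, up or down, on the log2 scale. Of 13766 genes tested, 621 were called (4.51%), 586 higher (4.26%) and 35 lower (0.254%) in high-share cells, and all 621 had the same direction in both libraries. The calls were made on these same 2 libraries, so this agreement is no separate evidence. The median log2 fold change of the higher genes was 4.0 in replicate 1 alone and 2.42 in replicate 2 alone, and that of the lower genes -2.63 and -1.34. Over all tested genes the median was -0.04. The fit has 1 residual degree of freedom, and the genes were read in the same cells that the rule chose, so p-values speak of the spread between 2 duplicates. With every cell thinned to 2000 UMIs before ranking, 556 of the 586 higher genes (94.9%) were called again but only 7 of the 35 lower ones (20.0%). That ranking took 689 and 559 cells as high-share. It compared them with 6797 and 8528, every other kept cell, so both classes changed along with the ranking.

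The 10 higher genes with the largest fold change among those of at least 50 CPM included several that are secreted or act at the cell surface. The limit was on the mean level of high-share cells over the 2 libraries. All but Krt19 and Anxa3 were under 50 CPM in replicate 2 and passed through replicate 1, so the limit favours genes that are higher there. Thbs1, the matrix glycoprotein thrombospondin 1, was at 290 CPM in high-share against 0.811 in zero-share cells of replicate 1 and at 34.8 against 0.539 in replicate 2 (log2 fold change 7.16 ± 0.64, SE, adjusted p = 0.0029). Prss23, a secreted serine protease, was at 143 against 0.419 CPM and at 16.7 against 0.242 (7.22 ± 0.60, adjusted p = 0.0028). Ccn4, a matricellular protein listed in the files as Wisp1, was at 100.4 against 0.168 CPM and at 5.99 against 0.0879 (7.85 ± 0.74, adjusted p = 0.0033). The high-share cells of both libraries stood far above the zero-share cells, and those of replicate 1 above those of replicate 2. The same held for the growth factors Tgfb2, at 157 and 8.29 CPM in high-share cells, and Igf2, at 144 and 3.06 CPM, for Phldb2, a protein of the cell cortex, at 99.9 and 11.5 CPM, and for Wls, the carrier that Wnt proteins need for secretion, at 102 and 11 CPM. Pmp22, a membrane protein of the claudin superfamily, was the most unequal of the 10 with 308 and 2.42 CPM, the latter 19 UMIs in all. Krt19 and Anxa3, described with their groups below, complete the 10 highest.

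Most tested genes of the contractile actin apparatus were called higher. Of 19 genes listed, 18 were tested, all 18 had a positive fold change, and 11 were called higher against a background of 4.26%, with a median log2 fold change of 2.40 (3.13 in replicate 1 alone and 1.77 in replicate 2 alone). Tpm1, a tropomyosin that coats actin filaments, was at 2927 CPM in high-share and 69.0 in zero-share cells of replicate 1, and at 651 and 73.0 in replicate 2 (4.17 ± 0.54, adjusted p = 0.0087). Cald1, the tropomyosin-binding caldesmon, was at 1154 against 29.2 CPM and at 226 against 20.4 (4.27 ± 0.46, adjusted p = 0.0053). Cnn1, calponin 1 of differentiated smooth muscle, was much less abundant but as distinct, at 41.1 against 0.783 CPM and 24.2 against 0.759 (5.23 ± 0.39, adjusted p = 0.0020). The other called members were Cnn2, Csrp1, Myl9, Tagln2, Tpm2, Tpm4, Vcl and Zyx, which span actin bundling, myosin and focal adhesions. The cytoplasmic actins Actb and Actg1 did not pass. Actb was at 4051 against 1351 CPM in replicate 1 and 2668 against 1696 in replicate 2 (1.00 ± 0.30, adjusted p = 0.109). Enteric smooth muscle actin, Actg2, was too rare to test, at 2.46 and 0 CPM in high-share cells.

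Full CArG boxes stood in the promoters of 5 of the 17 contractile genes with a RefSeq promoter (29.4%), Myl9, Myl6, Cnn2, Vcl and Actg1, and in 1.81% of the promoters of all genes. The 1-base-off box stood in 1 of the 17 (5.88%, against 9.69% of all genes) and the Tead motif described below in 6 of the 17 (35.3%, against 16.6%). Of these 5 genes with a full box, Myl9, Cnn2 and Vcl were called higher and Myl6 and Actg1 were not. Of all 18 tested contractile genes 11 were called, so these counts do not link the box to a call. The boxes of the 3 called genes are shown in capitals with the bases around them. Myl9 is at chr2:156775273-156775342 and Cnn2 at chr10:79988514-79988583, both on the plus strand, as is Vcl at chr14:20929148-20929210.
Myl9: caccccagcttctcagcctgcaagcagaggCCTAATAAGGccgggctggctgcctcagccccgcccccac
Cnn2: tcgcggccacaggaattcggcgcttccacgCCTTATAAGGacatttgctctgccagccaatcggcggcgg
Vcl: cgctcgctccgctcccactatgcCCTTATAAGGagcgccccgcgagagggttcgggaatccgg

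Most of the listed targets of Yap and Tead, the nuclear effectors of the Hippo pathway that respond to cell spreading and actin tension, were called as well. All 10 genes were tested and 6 were called higher against the same 4.26%, Ccn1, Axl, Ankrd1, Amotl2, F3 and Lats2. The median log2 fold change of the list was 3.07, with 4.18 in replicate 1 alone and 1.78 in replicate 2 alone. Ccn1, a matricellular protein, was at 309 against 4.39 CPM in replicate 1 and 68.4 against 6.43 in replicate 2 (4.66 ± 0.64, adjusted p = 0.0099). Axl, a receptor tyrosine kinase, was at 64.0 against 0.727 CPM and 4.72 against 0.374 (5.07 ± 0.69, adjusted p = 0.0095). Ankrd1, a nuclear and sarcomeric ankyrin repeat protein, was a gene of replicate 1 in practice, with 339 UMIs in its high-share cells and 6 in those of replicate 2. Ccn2, the classical target also named Ctgf, was at 81.6 against 5.51 CPM and 15.7 against 6.40 and did not pass (2.5 ± 0.59, adjusted p = 0.060). Ajuba did not pass either, at 77.3 against 66.2 CPM and 89.8 against 97.8 (-0.07 ± 0.26, adjusted p = 0.905).

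The Tead motif GGAATG, read on both strands, stood in the promoters of 7 of the 9 listed genes with a RefSeq promoter (77.8%) and in 16.6% of all. Ajuba and Crim1 were among these 7 and were not called, and of all 10 listed genes 6 were called. The motif overlapped a full or 1-base-off CArG box in 35 of 32851 promoters. The windows below show the motif in capitals for 3 called genes. Ankrd1 is at chr19:36120019-36120084 and Axl at chr7:25788931-25788983, both on the minus strand. Amotl2 is at chr9:102717709-102717774 on the plus strand, where the motif reads CATTCC.
Ankrd1: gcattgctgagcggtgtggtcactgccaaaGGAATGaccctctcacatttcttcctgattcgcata
Amotl2: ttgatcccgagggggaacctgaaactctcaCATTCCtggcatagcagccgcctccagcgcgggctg
Axl: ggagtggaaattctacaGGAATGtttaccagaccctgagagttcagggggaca
These matches describe the letters in the windows and do not show binding in these cells.

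The epithelial list held 19 genes, all tested and all with a positive fold change, of which 14 were called higher against 4.26% of all genes. The median log2 fold change was 2.71, with 3.48 in replicate 1 alone and 2.11 in replicate 2 alone. Of the 14 calls, 8 were annexins, S100 genes and Lgals1, which many cell types express, and 6 were keratins or junction genes, Krt7, Krt19, Krt20, Cldn6, Cldn7 and Dsp. Krt19, a keratin of simple epithelia, was nearly even between libraries, at 109 against 2.39 CPM in replicate 1 and 100.0 against 3.00 in replicate 2 (5.17 ± 0.32, adjusted p = 0.0020). Anxa3, a calcium-dependent membrane-binding annexin, was at 227 against 5.96 CPM and 93.3 against 4.14 (4.76 ± 0.33, adjusted p = 0.0020). Lgals1, the secreted galectin 1, and S100a6, a calcium-binding protein, were the most abundant members, with Lgals1 at 3594 against 115 CPM and 689 against 97.3, and S100a6 at 4624 against 552 and 1190.4 against 285. The desmosomal plaque protein Dsp (73.8 against 1.26 CPM and 19.6 against 1.10) and the tight junction claudins Cldn6 and Cldn7 were called as well. The adherens junction gene Cdh1 and the adhesion gene Epcam, which ES cells express in any case, were not. Cdh1 was at 86.5 against 53.8 CPM and 75.7 against 60.8 (0.39 ± 0.26, adjusted p = 0.448), and Epcam at 176 against 224 and 271 against 180 (0.01 ± 0.32, adjusted p = 0.992).

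Of the mesenchymal genes, 4 of 10 tested were called higher against 4.26% of all, Vim, Sparc and Cd44 among them. The list's median was 1.99, with 2.38 in replicate 1 alone and 1.08 in replicate 2 alone. Vim, the intermediate filament of mesenchymal cells, was at 466 against 19.6 CPM in replicate 1 and 92.1 against 28.8 in replicate 2 (3.01 ± 0.64, adjusted p = 0.044). The repressors of Cdh1 that mark epithelial-mesenchymal change gave no call in this fit: Snai1, counted with the streak genes, was at 8.39 against 1.5 and 1.66 against 0.934, Zeb1 at 4.92 against 5.05 and 3.57 against 4.80, and Snai2 was too rare to test. Zeb2 and Twist1 were tested and not called either. In cells over 2000 CPM, 8 of the 10 tested mesenchymal genes were called higher, beside 1791 of 13395 genes.

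Among 17 streak and early mesoderm genes outside the rule, 14 were tested and 6 called higher against 4.26% of all genes, with a median of 1.38 (1.83 in replicate 1 alone and 1.42 in replicate 2 alone). Wnt3, the ligand that sets off the primitive streak, was at 28.7 against 0.210 CPM in replicate 1 and 13.4 against 0.176 in replicate 2 (6.54 ± 0.47, adjusted p = 0.0020). Fgf8, a growth factor of the streak, had more RNA in replicate 2, at 14.8 against 0.220 CPM, than in replicate 1, at 5.93 against 0.322 (5.03 ± 0.64, adjusted p = 0.0084). Hand1 and Cdx2, transcription factors of extraembryonic and posterior mesoderm that trophoblast also uses, were at 32.4 and 31.6 CPM in replicate 1 and 2.04 and 6.38 in replicate 2, each under 0.35 CPM in zero-share cells. Sp5, a Wnt target, which also had more RNA in replicate 2 (18.6 against 12.3 CPM), and Lhx1 were the other two. Mesp1, Mesp2, Gsc, Evx1 and Nodal were not called, and Foxa2, Cer1 and Tbx6 were not tested. Cells led by the streak genes, defined below, numbered 120 in replicate 2 and 10 in replicate 1.

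Pluripotency genes had lower levels in high-share cells, by more in replicate 1 than in replicate 2, and few passed the test. None of the 10 core genes was called, but only 0.254% of all genes were called lower, so the absence of calls in a list this short says little. All 10 had a negative fold change, and their median was -2.35 in replicate 1 alone and -0.52 in replicate 2 alone. With cells chosen on part of their UMIs and read on the rest, 2 of the 10 were called lower, in a fit that called 103 of 12948 genes lower. Pou5f1, the central factor of the pluripotency network, was at 126 CPM in high-share against 547 in zero-share cells of replicate 1, and at 376 against 428 in replicate 2 (-1.27 ± 0.47, adjusted p = 0.185). Its partner Sox2 was at 44.7 against 238 and 129 against 239 (-1.76 ± 0.41, adjusted p = 0.056). Of 14 genes of the naive state, 3 were called lower against a background of 0.254%, and the list's median was -1.74 (-2.45 in replicate 1 alone and -0.95 in replicate 2 alone). With cells chosen on part of their UMIs, 8 of the 14 were called lower, beside the same 103 of 12948. Of all 35 lower genes, 1 was called again against all other kept cells. Without the replicate block, or with cells chosen on the streak genes alone, 0 were, while DESeq2 called all 35 again. Zfp42 (Rex1), a zinc finger marker of naive cells, was at 119 against 824 CPM in replicate 1 and 256 against 607 in replicate 2 (-2.13 ± 0.41, adjusted p = 0.033), and the factors Klf4 (-1.88 ± 0.34, adjusted p = 0.026) and Klf2 (-1.78 ± 0.33, adjusted p = 0.028) were the other two. Nanog was at 13.9 against 86.7 CPM and 43.4 against 74.1 and did not pass (-1.79 ± 0.47, adjusted p = 0.079). Of the formative or primed epiblast genes, 1 of 12 tested was called, Pou3f1 (Oct6), higher at 46.2 against 13.0 CPM and 91.2 against 33.3, beside 4.26% of all genes. Only 4 of the 12 had a positive fold change, and the list's median was -0.22, with -1.30 in replicate 1 alone and 0.15 in replicate 2 alone.

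The lower genes by the same rule of size were Zfp42 and Klf4 together with Hsd17b14, a dehydrogenase, Gtsf1l, Platr17, a noncoding RNA of pluripotent cells, Gbx2, a homeobox factor of the naive state, Cobl, Tcf15, Tet1, which oxidizes methylated cytosine, and Hmces. Tet1 was at 28.4 against 151 CPM in replicate 1 and 76.3 against 164 in replicate 2 (-1.87 ± 0.38, adjusted p = 0.038). Their log2 fold changes lay between -2.21 and -1.79, from -3.26 to -2.49 in replicate 1 alone and from -1.37 to -1.08 in replicate 2 alone.

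The levels of these genes were also read on either side of 2000 CPM. Pou5f1 was at 55.0 CPM in cells over 2000 CPM and 270 in the other high-share cells of replicate 1, and at 185 and 396 in replicate 2. Sox2 was at 16 and 103 CPM in replicate 1 and at 25.5 and 139 in replicate 2. Zfp42 gave 44.2 and 270 in replicate 1 and 55.0 and 277 in replicate 2. The strong cells of both libraries were thus low in all 3 genes, and the 418 other cells of replicate 2 kept Pou5f1 near the 428 CPM of zero-share cells. The label of differentiating cells thus had no support in the Pou5f1 of these 418 cells, while their Zfp42 and Sox2 levels lay below those of zero-share cells.

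**Figure D3:**
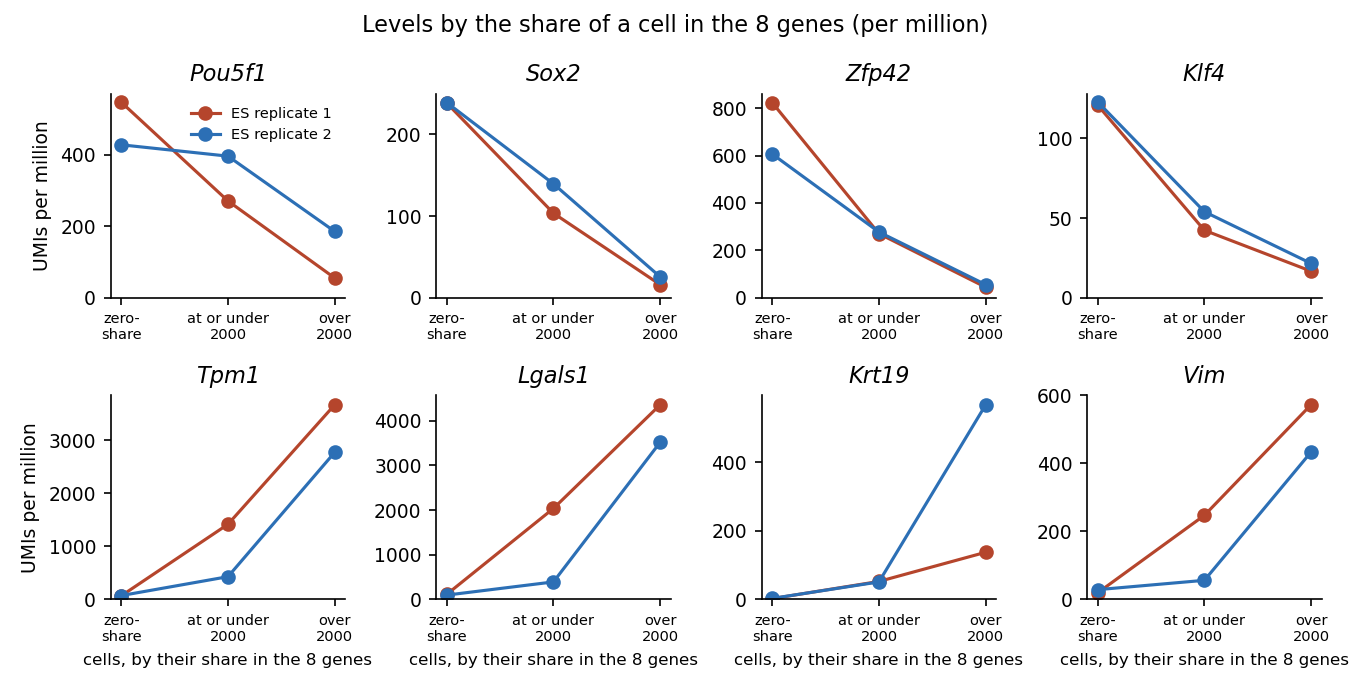
Levels (CPM) of 4 pluripotency genes (top) and 4 cytoskeletal or epithelial genes (bottom) in zero-share cells, high-share cells at or under 2000 CPM and high-share cells over it, for ES replicates 1 (red) and 2 (blue). Pou5f1 goes from 547 to 270 to 55.0 in replicate 1 and from 428 to 396 to 185 in replicate 2, and Tpm1 rises to 3667 and 2771 CPM in the strongest cells.

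Counted per cell, after every cell was thinned to 2000 UMIs to set depth equal, Pou5f1 was found in 20.5% of high-share cells of replicate 1 (16.6 to 25) and 65.3% of its zero-share cells (64.0 to 66.6). In replicate 2 the values were 53.2% (48.5 to 57.8) and 55.7% (54.5 to 56.9), whose intervals overlap. All intervals here cover counting error over the cells of a library only, so they test no difference between cultures. Without thinning they were 54.9% and 98.6% in replicate 1, and 95.4% and 97.0% in replicate 2. Zfp42 was found in a smaller share of high-share than of zero-share cells in both libraries, at 14.7% (11.2 to 18.7) against 75.6% (74.4 to 76.7) and 31.6% (27.4 to 36.1) against 65.8% (64.6 to 66.9). In XEN cells, which lack Pou5f1, it was found in 0.104% and 0.155% of cells after thinning, at median depths of 15290.5 and 19749 UMIs before it. Those libraries hold few or no Pou5f1-expressing cells, so they do not measure the free Pou5f1 RNA of an ES library, whose part in the shares above was not tested.

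Markers of other cell types are counted here beside the 4.26% of all genes called higher, 699 of 12948 with cells chosen on part of their UMIs and 664 of 13435 outside the fullest deposited cluster of each library. Of 12 fibroblast genes, 9 were tested and 4 called higher, Col1a1, Col1a2, Col3a1 and Col5a1, with 4 of 8 and 2 of 7 in those other fits, and the list summed to 191 CPM in high-share cells of replicate 1, 17.5 in those of replicate 2, and 7.40 and 5.97 in zero-share cells. Col1a1, the main fibrillar collagen, was at 64.5 CPM in replicate 1 and 1.28 in replicate 2. Postn, Lum and Dcn, which define many fibroblasts, were at 1.01, 0.145 and 0.579 CPM in replicate 1, and Lum and Dcn at 0.128 each in replicate 2. Fibroblast-like cells as a source of the actin and collagen RNA were not tested. Primitive endoderm genes gave 1 call in 10 tested, Dab2, but 4 of 9 and 5 of 9 in those other fits, and the list's median was 1.97, with 2.48 in replicate 1 alone and 0.94 in replicate 2 alone. The defining members were few in UMIs in either class. Gata4 was at 3.62 against 0.182 CPM in replicate 1 and 0.383 against 0.143 in replicate 2, and Gata6 at 1.59 against 0.140 and 0.255 against 0.121. In replicate 1 Gata4 was found in 2.40% of high-share against 0.252% of zero-share cells and Gata6 in 2.93% against 0.194%, without thinning. Sox17 was at 0.145 and 0.638 CPM in high-share cells and Pdgfra at 0.289 and 0. The part of endoderm-like cells in the result was not tested. The list summed to 393 and 74.9 CPM in high-share against 58.2 and 72.3 in zero-share cells, and the basement membrane collagens Col4a1 (157 and 13.3 CPM) and Col4a2 (117 and 6.76) made most of the sum in replicate 1.

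Trophectoderm genes gave 3 calls in 9 tested, beside the same 4.26%, Gata3 and Plac1 among them, and the list summed to 57.5 and 25.4 CPM in high-share against 10.5 and 9.47 in zero-share cells. Elf5 was at 0.289 and 0 CPM. Of the neural genes, Nes alone was called among 7 (again beside 4.26%), at 51.7 against 2.17 CPM and 40.8 against 3.98, while Sox1 and Pax6 were at or under 1.53 CPM in all high-share cells. Of 13 listed genes of the 2-cell-like state, 7 were in the files, and no UMI of these was counted in a high-share cell. They summed to 0.308 and 0.0110 CPM in zero-share cells, so a difference was not detectable at this depth.

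Stress and cell cycle genes were listed as well. Of 12 p53 targets, 5 were called higher, Cdkn1a, Perp, Btg2, Pmaip1 and Fas, against 4.26% of all genes. The median over the list was 1.23, with 1.51 in replicate 1 alone and 0.77 in replicate 2 alone. Cdkn1a, the cell cycle inhibitor p21, was at 315 against 36.7 CPM in replicate 1 and 116 against 27.9 in replicate 2 (2.47 ± 0.32, adjusted p = 0.0087). Of 12 immediate early and heat shock genes, which dissociation can induce, 4 were called higher beside 4.26% of all genes, Atf3, Jun, Klf6 and Ier3, while Fos, Egr1 and Hspa1a were not. The list's median was 1.77 in replicate 1 alone and 0.67 in replicate 2 alone. Jun was at 78.2 against 4.84 CPM and 29.6 against 8.78. Of 10 targets of Nodal, BMP and TGF-beta signaling, 3 were called higher beside the same 4.26%, Id2 and Id3 among them, with a median of 0.63 (0.87 in replicate 1 alone and 0.48 in replicate 2 alone). None of the 12 S phase and 13 G2 and M phase genes was called, with medians of -0.72 and -0.49 against -0.04 for all genes. Only 0.254% of all genes were called lower, so the absence of calls in lists this short says little. Over 2000 CPM, 8 of the 12 and 6 of the 13 were called lower, beside 1631 of 13395 genes. The median of the S phase list was -1.30 in replicate 1 alone and -0.29 in replicate 2 alone, and that of the G2 and M phase list -0.85 and -0.22.

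**Figure D4:**
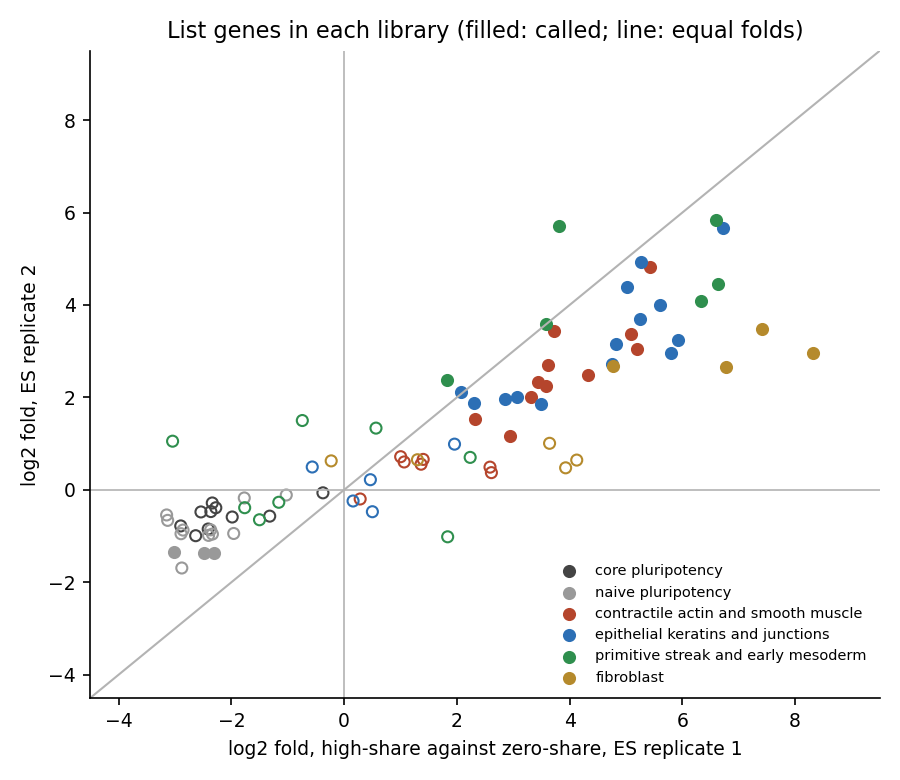
Log2 fold change of high-share against zero-share cells in ES replicate 1 (x axis) and replicate 2 (y axis) for the genes of 6 lists, one point per gene. Filled points are called, open points are not, and the diagonal marks equal folds. Of the 586 genes called higher, 532 had the larger fold in replicate 1, and Krt19 (5.27 and 4.94) lies near the diagonal and Fgf8 (3.81 and 5.71) above it.

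The high-share cells were also grouped by the rule genes that led in each. Each was assigned to the gene group, keratin, actin or streak, whose share exceeded its mean over the library by most. Every cell gets a group in this way, from the same genes that chose it, so the counts do not show separate kinds of cell. In replicate 2, 275 of 455 cells had 5 or fewer UMIs of these genes, so many assignments there rest on few UMIs. Keratin-led cells made up 216 of 375 (57.6%) in replicate 1 and 229 of 455 (50.3%) in replicate 2, actin-led cells 149 (39.7%) and 106 (23.3%), and streak-led cells 10 (2.67%) and 120 (26.4%). Actin-led cells held Pou5f1 at 81.4 CPM in replicate 1 and 332 in replicate 2, and keratin-led cells at 150 and 413.

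Actin-led and keratin-led cells were then compared in the same way, a test of 9894 genes in which 54 were called (0.546%), 25 higher (0.253%) and 29 lower (0.293%) in actin-led cells. Of these, 23 of the 25 and all 29 had the same direction in both libraries, which are again the libraries that made the calls. Higher in actin-led cells were Cnn1, at 63.3 CPM against 27.2 in replicate 1 and 43.4 against 18.5 in replicate 2 (1.21 ± 0.25, adjusted p = 0.030), and the intermediate filament gene Nes, at 75.2 against 35.7 and 70.3 against 28.2 (1.18 ± 0.24, adjusted p = 0.024). Ccnd2, cyclin D2, was at 85.3 against 10.8 CPM and 41.4 against 13.5 (2.31 ± 0.31, adjusted p = 0.001). The actin-binding gene Aif1l, the secreted Fstl1, the collagen cross-linker Loxl2 and Pmp22 followed the same direction in both. Col1a2, Col1a1 and Ankrd1 had the largest fold changes, but these came from replicate 1, where Col1a1 was at 144 against 11.6 CPM. In replicate 2 Col1a1 was at 1.5 against 1.58 CPM, Col1a2 at 0.998 against 0.264 and Ankrd1 at 0.499 against 1.32, all of them a few UMIs.

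Genes lower in actin-led, and so higher in keratin-led cells, included epithelial ones. Krt19 was at 64.0 CPM in actin-led against 141 in keratin-led cells of replicate 1 and at 52.4 against 172 in replicate 2 (-1.43 ± 0.23, adjusted p = 0.006). Lgals3, galectin 3 of epithelia, was at 70.1 against 195 and 42.9 against 219 (-1.90 ± 0.24, adjusted p = 0.001). Klf5, a factor of trophectoderm and of naive ES cells, was at 70.5 against 150 and 86.8 against 335 (-1.53 ± 0.24, adjusted p = 0.006), and Wnt6, a Wnt ligand of epithelia, at 9.40 against 76.7 and 25.4 against 50.7 (-1.96 ± 0.36, adjusted p = 0.013). Ass1, Apoe, Fabp3, Trap1a, Cd9 and Ifi30 completed the 10, with fold changes between -1.67 and -1.12. Beside 0.253% of all genes called higher, 2 of 18 contractile, 2 of 10 mesenchymal and 2 of 6 fibroblast genes were. Beside 0.293% called lower, 2 of 18 epithelial, 3 of 13 naive and 1 of 10 core pluripotency genes were. The medians in replicate 1 alone and replicate 2 alone were 0.75 and 0.30 for the contractile list. They were 1.80 and -0.07 for the mesenchymal and 2.05 and -0.02 for the fibroblast list. For the epithelial list they were -0.36 and -0.26, for the naive -0.46 and -1.46, and for the core -0.61 and 0.10. These calls are fragile, since 3 higher and 1 lower remained with at least 1000 genes and 5000 UMIs per cell, and DESeq2 gave 4 and 6.

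**Figure D5:**
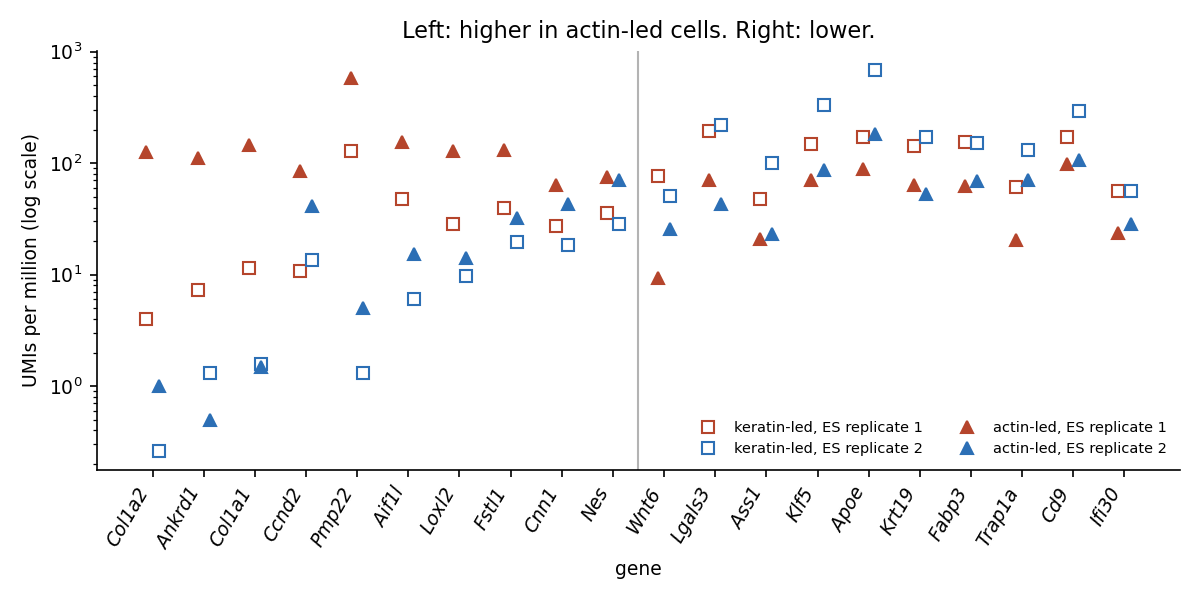
Levels (CPM, log scale) in actin-led cells (triangles) and keratin-led cells (squares) of ES replicates 1 (red) and 2 (blue), for the 10 genes with the highest and the 10 with the lowest log2 fold change named by the rule. The 10 genes on the right are lower in actin-led cells of both libraries, while Col1a1 and Ankrd1 on the left are not higher in those of replicate 2.

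The deposited tables number a cluster for every cell, which the rule did not use. In replicate 1, cluster 8 held 263 of the 375 high-share cells (70.1%, 65.2 to 74.7), and these were 99.2% of its 265 cells. In replicate 2 the fullest, cluster 4, held 153 of 455 (33.6%, 29.3 to 38.2), which was 19.5% of its 786 cells, and 29 of the 37 cells over 2000 CPM. The remaining high-share cells were spread over every other cluster. The clusters number these same cells and how they were made is not given, so they are no independent evidence of a separate population. With the high-share cells of these 2 clusters left out and the zero-share cells kept whole, 430 of the 586 higher genes (73.4%) and 25 of the 35 lower ones (71.4%) were called again.

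Across the conversion, cells over 2000 CPM were rare in the first days after induction, but this did not hold for every rule gene or limit. Cells over 2000 CPM made up 3.27% and 0.407% in ES, 0.0238% and 0% at 9h, where cells had been sorted and recombined, and stood at 0.170% and 0.0320% at 24h and 0.488% and 0.0823% at 48h. Tagln was at 86.2 and 18.9 CPM over all kept ES cells, 0.768 and 0.820 at 9h, 3.84 and 0.694 at 24h, and 7.15 and 0.753 at 48h. In iXEN 29.3% and 20.4% of cells passed the same limit, with Krt8 at 671 and 645 CPM and Krt18 at 1004 and 882. In XEN libraries, the endoderm line itself, 3.52% and 12.6% did. In the XEN-iPS libraries, 2.92% and 20.5% did, with Acta2 at 28.0 and 420 CPM, Tagln at 43.2 and 506, and Col1a1 at 11.5 and 320. The XEN and XEN-iPS cells had been grown on feeder layers of mouse embryonic fibroblasts, whose part in these values was not tested. None of these differences was tested.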

How the data were processed

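The 2 ES libraries (0 h, 10x Genomics 3' v2, technical duplicates) were analysed, and the other libraries gave levels only. The authors processed reads with SEQC against GRCm38/mm10, removing cells with a high mitochondrial share, and deposited raw UMI counts for each gene in each cell, 17483 genes in both ES tables, with a cluster number per cell whose making is not given in the sources used here. For their own analysis the authors left out a cluster of cells in the starting ES samples that they described as differentiating spontaneously. They also reported batch effects in the ES-to-iXEN time points and corrected these with mnnCorrect. No such correction was made here. Genes were placed with GENCODE vM21, older symbols through RefSeq.

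UMIs were summed per cell class and library. Classes were compared with edgeR 4.0.16 (R 4.3.3; TMM, filterByExpr, quasi-likelihood test, Benjamini-Hochberg over all tested genes), library as block, the 8 rule genes left out of totals and test. The SE after ± was worked back from the test, as the size of the log2 fold change over the square root of its F statistic. The fold change in 1 library alone was the difference of log2 CPM with a prior count of 2. Shares have 95% exact Clopper-Pearson intervals. The members and lists were chosen with earlier results of these data known. Named genes were the 8 rule genes, list genes, and per comparison the 10 highest and 10 lowest called with at least 50 CPM. This limit was on the mean of the 2 libraries in the class where the gene was higher. Scrublet (scanpy 1.11.5) marked 0 cells in either library and so did not work; doublet scores were used instead. Alternatives included DESeq2 1.42.0.

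On simulated sums of the first comparison, 48% of genes changed by 1.5 (log2) and 87% changed by 2.5 were recovered, with 4 false calls in 13346 genes. For the second comparison 93% and 98% were recovered, with 10 false calls in 9647. The simulation gave every gene a common dispersion and each changed gene an equal fold in both libraries, with no library effect. It changed only genes with many UMIs, and counted recovery and false calls by adjusted p alone. The real folds differed between libraries and the cells were chosen on their own counts, so these figures need not hold here. Some list genes are not reported here by name.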

Additional observations from a re-analysis of the deposited data

How the results depend on the processing

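Counts of genes called higher and lower in high-share cells (586 and 35) moved with the settings, and no alternative turned their balance toward lower genes. They were 843 and 144 with RLE size factors, 1094 and 367 without a filter on low counts, and 931 and 240 with DESeq2, which moved the share of higher among called genes from 94.4% to 85.4%, 74.9% and 79.5%. Without the replicate block, which pairs the classes of a library, 83 and 0 were called (edgeR, 3024 genes at an unadjusted p under 0.05). The top 2% of cells gave 1.3e+03 and 665, the top 10% 578 and 29, and ranking after thinning 895 and 27. Cells chosen on the keratins alone gave 692 and 62, on Acta2 and Tagln alone 547 and 78, and on the streak genes alone 288 and 2. Against all other kept cells 284 and 1 were called, and with at least 1000 genes and 5000 UMIs per cell 772 and 115.

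Choosing cells on part of their UMIs gave 699 and 103. The following were chosen after seeing the data. Cells over 2000 CPM gave 1791 and 1631, those at or under it 891 and 250, those outside the fullest deposited cluster 664 and 106, those without the highest doublet scores 579 and 34, and a draw of zero-share cells down to 3743 and 4543 cells 565 and 39. Of the lists, read beside 1631 of 13395 genes lower and 1791 higher over 2000 CPM and 250 and 891 of 13614 at or under it, core pluripotency had 9 of 10 genes called lower over 2000 CPM and 3 at or under it, naive pluripotency 14 and 11 of 14, and S phase and G2 and M phase 8 of 12 and 6 of 13 over it, while primitive endoderm had 5 of 9 called higher and 1 lower over it, and 6 of 10 higher and 1 lower at or under it. Formative genes had 7 of 12 called lower and fibroblast genes 8 of 9 higher over it.

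For actin-led against keratin-led cells (25 and 29), counts were 92 and 112 without the filter, 28 and 31 with RLE, 4 and 6 with DESeq2, 3 and 1 with the stricter cells, 8 and 9 without the highest doublet scores, and 0 and 0 without the block (106 genes at an unadjusted p under 0.05). In replicate 2 alone the fold changes of Ankrd1 (-0.80) and Col1a1 (-0.059) reversed, while in replicate 1 alone they were 3.78 and 3.52.

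The share of high-share cells with Pou5f1 (20.5% and 53.2%) was 54.9% and 95.4% without thinning, 7.33% and 46.2% in the top 2%, 42.5% and 55.7% in the top 10%, and 45.1% and 84.8% on the unused part of the UMIs.

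Of 82 genes named in the first comparison, 65 lost their call without the block, 44 with cells chosen on the streak genes alone, 26 against all other cells, 12 after thinning, and 6 or fewer under each other alternative. Fold changes of 73 moved by more than this SE without replicate 1 and of 61 without replicate 2. Leaving out a library leaves no residual degree of freedom, so its folds are values without a test and the counts have none. The alternative without called doublets was not run, as no cell was called. The causes of these shifts were not tested. The precision is limited by 2 duplicates of 1 line.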
